A study of Homo sapiens with 30 samples.

Results

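The late transcriptional response to BMP7 treatment was compared between estrogen receptor (ER)-positive and ER-negative breast cancer cell lines. Late means the 3, 6, 12 and 24 h time points, which hold 20 of the 30 arrays of the series. Of these, 12 belong to the 3 ER-positive lines MDA-MB-361, T-47D and ZR-75-30 and 8 to the 2 ER-negative lines HCC1954 and MDA-MB-231. All are established human breast cancer lines, each treated with recombinant BMP7 or with vehicle for the stated time. Per the paper, MDA-MB-231 and T-47D were each grown with a serum content that departed from the recommended medium. Serum was lower for MDA-MB-231 than for T-47D, and the remaining lines had the recommended medium. Serum is thus tied to the line, and its part in the differences between lines was not tested. On every array, vehicle-treated cells carried the Cy3 dye and BMP7-treated cells the Cy5 dye, without any dye swap. For each line and time point, RNA from 3 cultures was pooled and 1 array was hybridized, so the cell line is the unit of comparison. The labels do not give ER status, which was taken as it is commonly known for these lines. Each value below is a log2 ratio of BMP7 over vehicle, where 1 is a doubling and 0 is no difference, and a late mean is its average over the 4 late arrays of a line. A probe was tested if it was well above background in both channels on all 20 late arrays, which held for 16225 of 41000 probes.

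BMPs are secreted ligands of the TGF-beta family that bind paired type I and type II receptor kinases. The receptors phosphorylate SMAD1, SMAD5 and SMAD9, which join SMAD4 and activate genes such as the ID genes, whose products block basic helix-loop-helix transcription factors. ER-alpha, encoded by ESR1, is a hormone-activated transcription factor that defines the luminal hormone-dependent type of breast cancer, in which cyclin D1 and GREB1 are among its best known targets.

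ESR1 and most luminal genes in the vehicle channel followed the known ER status of the lines, as did a smaller part of the ER target genes. Levels are given as log2 signal relative to the median probe of each array (mean ± SD over the 4 late arrays of a line). ESR1 was at 4.27 ± 0.43 in MDA-MB-361, 2.67 ± 0.33 in ZR-75-30 and 3.60 ± 0.73 in T-47D. It was at -0.51 ± 0.25 in HCC1954 and was not well above background on any late array of MDA-MB-231. The ER target GREB1 was at 5.83, 5.37 and 5.45 in the ER-positive lines, and was well above background on 0 late arrays of HCC1954 and 1 of MDA-MB-231. PGR, the progesterone receptor gene and a classical ER target, was well above background on all late arrays of T-47D alone, at 4.41 ± 0.59, and on 3 of MDA-MB-361. Of 16 luminal genes, 13 were higher in every ER-positive line than in both ER-negative lines and 0 were lower. Among all probes, 13.4% were higher and 13.3% lower. Of 21 ER target genes, 8 were higher and 1 was lower by the same rule. The lower one was CCND1, at 6.99 in HCC1954 and 5.95 in MDA-MB-231 but at most 5.82 in an ER-positive line. Of 21 basal and mesenchymal genes 10 were lower and 1 was higher, and VIM, which encodes the mesenchymal filament protein vimentin, was at 8.02 in HCC1954 and 10.3 in MDA-MB-231 but at most 1.22 ± 0.57 in an ER-positive line. The lines of each group thus differ in much besides ER, and these differences cannot be told apart from ER status with 5 lines. Endogenous BMP7 did not follow ER status. Its vehicle level was 9.10 in ZR-75-30, 5.93 in HCC1954, 4.13 in MDA-MB-361 and 2.34 in T-47D, and it was not well above background in MDA-MB-231.

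**Figure D1:**
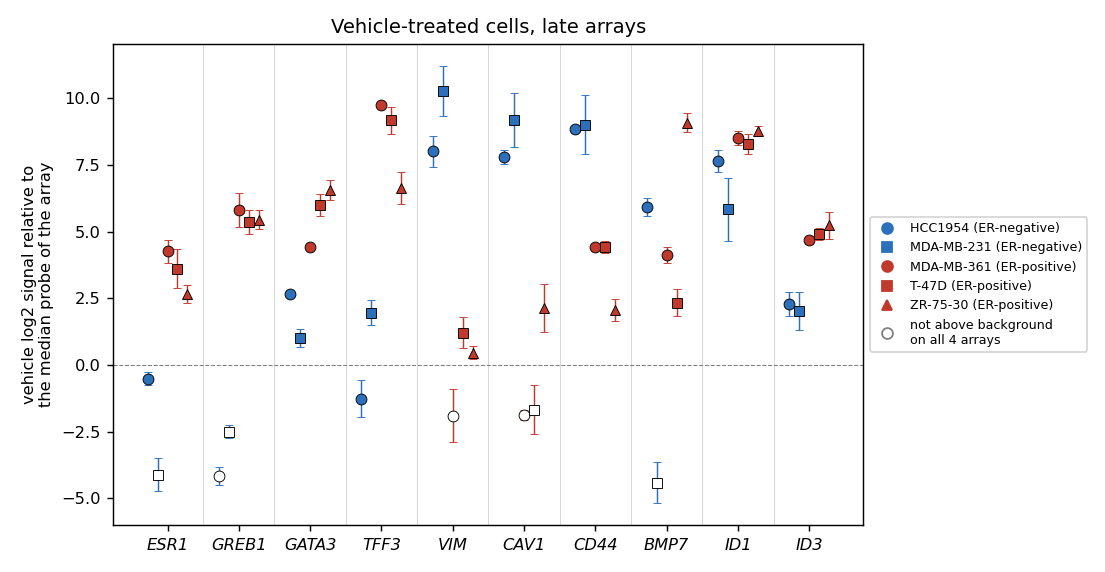
Vehicle channel levels of marker genes on the late arrays, as log2 signal relative to the median probe of the array (y axis), for each cell line. Points are means and bars SDs over 4 late arrays, and open symbols were not well above background on all 4. ESR1 lies between 2.67 and 4.27 in the ER-positive lines and at -0.51 or below in the ER-negative lines, and ID3 lies above 4.6 in the former and below 2.3 in the latter.

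There were 11 slides and 2 scan batches among the late arrays, and the second batch held MDA-MB-231 and ZR-75-30 at 6 h and T-47D at 3 h. Among the probes tested, ZR-75-30 at 6 h stood apart with 1163 probes changed at least 2-fold, where the other 19 late arrays had 1 to 255. It shared a slide with MDA-MB-231 at 6 h, which had the lowest count. Main results are therefore also given without the ZR-75-30 6 h array.

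Between ER-positive and ER-negative lines, no single probe passed the test. The difference of late means was called for 0 of 16225 probes in either direction (limma on 5 line means, lowest adjusted p = 0.624). At an unadjusted p under 0.05 there were 695 probes higher (4.28%) and 279 lower (1.72%) in ER-positive lines, or 6.00% in all. Without any overlap between the late means of both groups of lines there were 1763 probes higher and 1626 lower, or 20.9% in all. Without the ZR-75-30 6 h array, again 0 of 16227 probes passed (lowest adjusted p = 0.387), with 1057 higher (6.51%) and 407 lower (2.51%) at an unadjusted p under 0.05, or 9.02% in all. The ER differences of all probes had an SD of 0.18 and ranged from -0.96 to 1.21, and the median standard error of a difference was 0.13. In simulated data of the same layout, 45 of 50 probes with a true difference of 1 were recovered but only 6 of 50 with a difference of 0.5. Differences of 0.5 were thus mostly not detectable with 5 lines. The simulation also held 50 probes each with differences of 2 and 4, whose calls ease the adjusted threshold. Its recovery of differences of 1 therefore does not carry over to these data, where SSR3 with 1.07 did not pass. These p-values measure the spread among the lines.

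**Figure D2:**
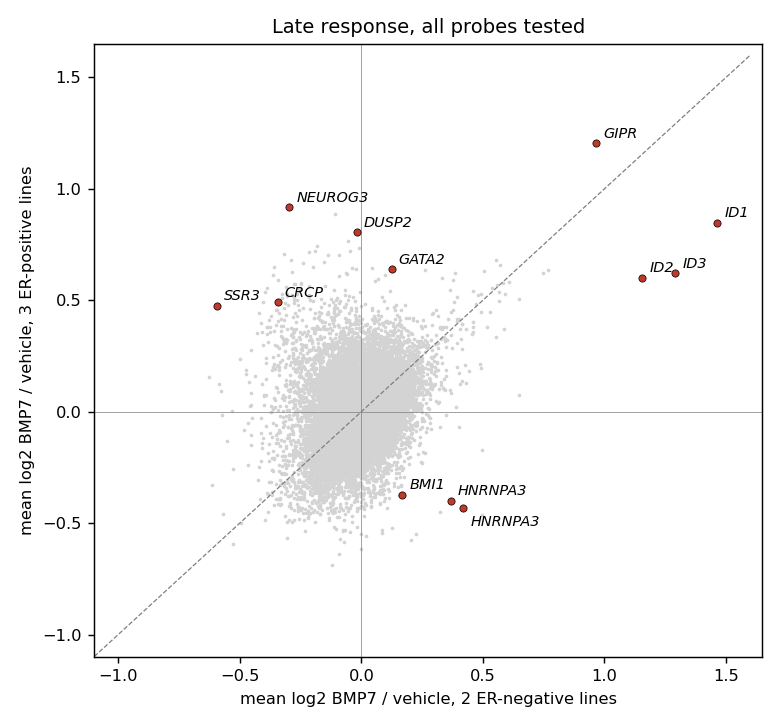
Late mean log2 BMP7/vehicle in the 3 ER-positive lines (y axis) against the 2 ER-negative lines (x axis), with 1 point for each of the 16225 probes tested and a dashed line where both are equal. ID1, ID2 and ID3 are positive in both groups and lie on the ER-negative side of the line, while GATA2 and DUSP2 lie near 0 in the ER-negative lines and at 0.64 and 0.81 in the ER-positive lines.

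The tested probes of ID1, ID2 and ID3, the classical direct targets of BMP signaling, had positive late means in all 5 lines and lower ones in ER-positive lines on average. The bases upstream of these genes are shown because BMP-activated SMADs act through short motifs in such regulatory DNA. The 250 bases before each RefSeq gene start (GRCh38.p14, 5′ to 3′ on the gene's strand) are given with GTCT and its reverse complement AGAC in capitals, the SMAD-binding letters searched on both strands. They lie at chr20:31605039-31605288 on the plus strand for ID1, chr2:8681806-8682055 on the plus strand for ID2 and chr1:23559502-23559751 on the minus strand for ID3.
ID1: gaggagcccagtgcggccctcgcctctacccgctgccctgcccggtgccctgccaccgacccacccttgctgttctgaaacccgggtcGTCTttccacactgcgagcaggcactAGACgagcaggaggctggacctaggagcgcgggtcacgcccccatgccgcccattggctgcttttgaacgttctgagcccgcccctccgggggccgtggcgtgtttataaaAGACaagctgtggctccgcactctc
ID2: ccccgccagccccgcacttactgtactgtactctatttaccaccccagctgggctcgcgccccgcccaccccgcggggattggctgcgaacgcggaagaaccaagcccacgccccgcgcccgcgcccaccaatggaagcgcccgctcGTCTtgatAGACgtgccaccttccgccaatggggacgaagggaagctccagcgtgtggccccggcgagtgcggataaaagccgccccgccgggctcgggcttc
ID3: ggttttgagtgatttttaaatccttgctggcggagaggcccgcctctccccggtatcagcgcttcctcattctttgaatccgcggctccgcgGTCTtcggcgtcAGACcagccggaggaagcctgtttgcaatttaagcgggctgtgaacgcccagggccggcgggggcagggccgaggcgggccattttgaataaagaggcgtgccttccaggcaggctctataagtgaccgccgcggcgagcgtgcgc
The ID1 stretch holds 3 such matches and the ID2 and ID3 stretches 2 each, none overlapping. Of 35116 RefSeq promoters of the same length, 77.5% hold at least 1. The letters GGCGCC, the core of a BMP-responsive SMAD element, are in none of these 3 windows and in 16.4% of all.

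The log2 ratio of the ID1 probe (hg18, chromosome 20, 29657819 to 29657878) in HCC1954 took the values 1.32, 1.09, 1.15 and 0.99 in order of time. In MDA-MB-231 it was 1.91, 0.54, 2.10 and 2.62 at the same 4 times. The ER-positive lines had 1.47, 1.89, 0.88 and 1.06 (MDA-MB-361), 0.69, 0.29, 0.58 and 0.84 (T-47D), and 0.41, 0.77, 0.55 and 0.74 (ZR-75-30). ID1 was thus above 0 on all 20 late arrays, highest in MDA-MB-231 at 24 h and lowest in T-47D at 6 h. The late means were 1.79 for MDA-MB-231, 1.32 for MDA-MB-361, 1.14 for HCC1954, 0.62 for ZR-75-30 and 0.60 for T-47D, so the groups overlapped through MDA-MB-361. MDA-MB-361 and HCC1954 differed by less than the SD of 0.45 over the arrays of MDA-MB-361, and ZR-75-30 and T-47D by less than the SD of either. The ER difference of -0.62 ± 0.25 (SE) did not pass the test (limma, unadjusted p = 0.0317, adjusted p = 0.790). From 3 to 24 h it was -0.76, 0.17, -0.96 and -0.92. The low MDA-MB-231 value at 6 h belongs to the second scan batch, and with the first batch alone the ER difference was -0.85 (limma, adjusted p = 0.434). The difference depended on which ER-negative line was kept, at -0.29 without MDA-MB-231 and -0.94 without HCC1954. A further probe that the study's gene list pairs with ID1 (chromosome 20, 29657031 to 29657090, chosen after its values were seen) was well above background on 19 late arrays and so was not tested. Its late means were 1.90 for MDA-MB-231, 1.52 for MDA-MB-361, 1.02 for ZR-75-30, 0.73 for HCC1954 and 0.59 for T-47D, with MDA-MB-231 and MDA-MB-361 again at the top and an ER difference of -0.27.

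The ID3 probe (hg18, chromosome 1, 23758253 to 23758312) had log2 ratios of 1.15, 0.87, 0.85 and 0.98 in HCC1954 and 1.46, 0.84, 1.83 and 2.35 in MDA-MB-231. The ER-positive lines had 1.18, 1.21, 0.90 and 0.61 (MDA-MB-361), 0.25, 0.41, 0.24 and 0.18 (T-47D), and 0.63, 0.58, 0.63 and 0.64 (ZR-75-30). Every array of MDA-MB-231 and HCC1954 lay above every array of T-47D and ZR-75-30, and MDA-MB-361 overlapped with HCC1954. The late means were 1.62 ± 0.63 for MDA-MB-231, 0.97 ± 0.28 for MDA-MB-361, 0.96 ± 0.14 for HCC1954, 0.62 ± 0.03 for ZR-75-30 and 0.27 ± 0.10 for T-47D (SD over 4 arrays). The ER difference was -0.67 ± 0.23 (SE; limma, unadjusted p = 0.0158, adjusted p = 0.778). A further probe that the study's gene list pairs with ID3 (chromosome 1, 23757351 to 23757410, chosen after its values were seen) had a difference of -0.69. Its late means were 2.29 for MDA-MB-231, 1.61 for MDA-MB-361, 0.83 for ZR-75-30, 0.69 for HCC1954 and -0.04 for T-47D, but it was well above background on only 1 late array of MDA-MB-231 and was not tested.

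ID2 was read by probes at chromosome 2, 8740093 to 8740481 and 8741733 to 8741792. The former had late means of 1.44 for MDA-MB-231, 0.93 for MDA-MB-361, 0.87 for HCC1954, 0.77 for ZR-75-30 and 0.10 for T-47D. T-47D was the lowest line, with values of 0.44, 0.21, 0.02 and -0.27 from 3 to 24 h. Its ER difference was -0.55 ± 0.25 (SE; limma, unadjusted p = 0.0484, adjusted p = 0.825). The latter probe, well above background on 19 of the 20 late arrays and thus not tested, had late means of 1.28 and 1.91 in the ER-negative lines and 1.03, 0.74 and 1.15 in MDA-MB-361, T-47D and ZR-75-30. On that probe the groups did not overlap. ID4 was not well above background in MDA-MB-231, and among the other lines had late means of 0.84 in HCC1954 and MDA-MB-361, 0.13 in ZR-75-30 and 0.07 in T-47D.

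The levels in vehicle-treated cells went the other way. ID3 was at 2.27 ± 0.45 in HCC1954 and 2.03 ± 0.71 in MDA-MB-231, but at 5.24 ± 0.51 in ZR-75-30, 4.92 ± 0.21 in T-47D and 4.68 ± 0.15 in MDA-MB-361 (log2 signal relative to the array median, SD over 4 arrays). ID1 was at 7.64 and 5.84 in the same ER-negative lines and at 8.52, 8.29 and 8.79 in the ER-positive lines. The brighter ID2 probe was at 2.22 and -0.77 in the ER-negative lines and at 6.04, 3.87 and 4.89 in the ER-positive lines. In all 3 genes the line with the lowest vehicle level, MDA-MB-231, had the highest late log ratio. MDA-MB-231 was also the line with the lower of the changed serum contents. The parts of the vehicle level and of serum in the log ratio were not tested.

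**Figure D3:**
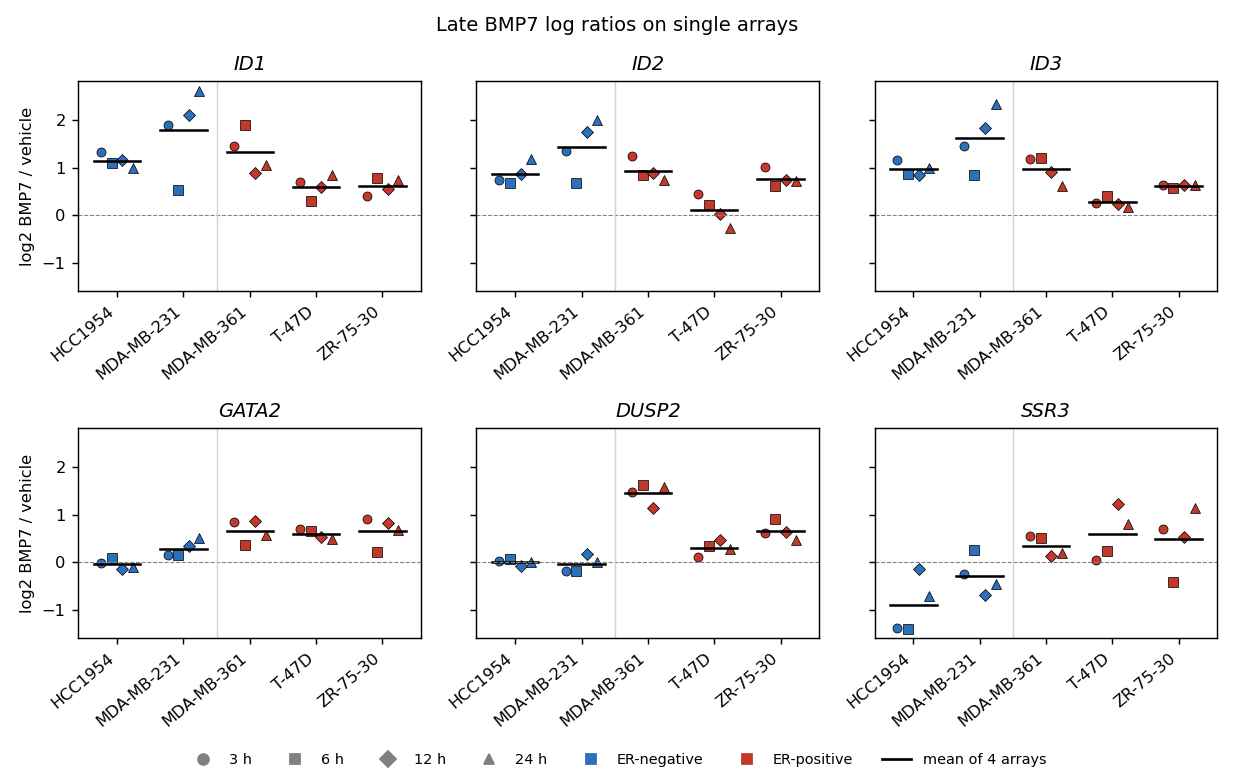
Log2 BMP7/vehicle on single arrays (y axis) of ID1, ID2 (the tested probe), ID3, GATA2, DUSP2 and SSR3 in each cell line, with 1 symbol per time point and a bar at the mean of the 4 late arrays. ID1 and ID3 are above 0 on all 20 arrays, DUSP2 is above 0 on all 12 ER-positive arrays and within 0.18 of 0 on the ER-negative arrays, and SSR3 is below 0 on 7 of 8 ER-negative arrays.

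GATA2, which encodes a zinc finger transcription factor induced by BMPs during development, went in the opposite direction. Its log2 ratio (hg18, chromosome 3, 129682136 to 129682195) was -0.02, 0.08, -0.14 and -0.09 in HCC1954 and 0.15, 0.15, 0.35 and 0.51 in MDA-MB-231. The ER-positive lines had 0.84, 0.36, 0.87 and 0.58 (MDA-MB-361), 0.70, 0.66, 0.54 and 0.50 (T-47D), and 0.91, 0.21, 0.83 and 0.68 (ZR-75-30). All 12 ER-positive arrays were above 0, and the late means of 0.66, 0.60 and 0.66 did not overlap with -0.04 in HCC1954 and 0.29 in MDA-MB-231. The ER difference was 0.52 ± 0.13 (SE; limma, unadjusted p = 0.00331, adjusted p = 0.778), and 0.57 without the ZR-75-30 6 h array (limma, adjusted p = 0.387). It passed without T-47D (limma, adjusted p = 0.0306). At 30 min the GATA2 values were 0.40 in MDA-MB-361, -0.01 in MDA-MB-231, -0.15 in T-47D, -0.47 in HCC1954 and -0.50 in ZR-75-30, with no order by ER status.

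DUSP2, which encodes a nuclear phosphatase of MAP kinases, showed the same order on a larger scale. Its log2 ratio (hg18, chromosome 2, 96172962 to 96173021) had the values 1.48, 1.63, 1.14 and 1.59 (MDA-MB-361), 0.11, 0.35, 0.47 and 0.27 (T-47D), and 0.62, 0.91, 0.64 and 0.46 (ZR-75-30). The ER-negative arrays ranged from -0.18 to 0.16. The groups did not overlap as line means, at 1.46, 0.30 and 0.66 against 0.00 and -0.04. The ER difference of 0.83 ± 0.27 (SE) did not pass the test (limma, unadjusted p = 0.0128, adjusted p = 0.778) and was 0.50 without MDA-MB-361. It passed without T-47D, at 1.08 (limma, adjusted p = 0.000177), and with slide as a random block over single arrays (limma, adjusted p = 0.0480). The slide fit has no term for the line, so time points of a line on different slides count there as separate units. At 30 min DUSP2 was between -0.19 and 0.02 in all 5 lines.

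SMAD6 and SMAD9 had their highest late means in MDA-MB-361, which SMAD7 did not. SMAD6, an inhibitory SMAD, had late means of 1.21 in MDA-MB-361 and 0.42 in both T-47D and ZR-75-30, against 0.28 in both ER-negative lines. It was well above background on only 2 late arrays of MDA-MB-231 and was not tested. SMAD9, a receptor-activated SMAD of the BMP branch, had 1.27 in MDA-MB-361, 0.58 in ZR-75-30, 0.38 in MDA-MB-231, 0.16 in T-47D and 0.14 in HCC1954, with overlap between the groups. It was well above background in the vehicle channel on only 2 late arrays of ZR-75-30 and was not tested. SMAD7, the other inhibitory SMAD, was between 0.16 and 0.30 in all lines, with an ER difference of -0.10 ± 0.11 (SE; limma, adjusted p = 0.983). BAMBI, which encodes a decoy receptor, was between 0.02 and 0.12. ATOH8, a helix-loop-helix factor downstream of BMP receptors, had 1.48 for MDA-MB-231, 0.87 for MDA-MB-361, 0.69 for ZR-75-30 and -0.10 for T-47D, but was well above background on only 1 late array each of T-47D and HCC1954. HEY1, a Notch and BMP target, had 1.26 in T-47D and 0.68 in ZR-75-30 against 0.28 or less in the other lines, and was well above background on 2 of the 4 T-47D arrays.

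Of the 25 BMP-SMAD target genes on the list, each read from its brightest vehicle probe, 9 could be tested and 0 were called. At an unadjusted p under 0.05, GATA2 was higher and ID1 and ID3 were lower in ER-positive lines. The median ER difference was 0.02 over the 9 genes and -0.0048 over all probes tested. The median late mean of the 9 genes was 0.28 for MDA-MB-231, 0.23 for MDA-MB-361, 0.22 for HCC1954, 0.19 for ZR-75-30 and 0.17 for T-47D, where the medians of all probes lay within 0.01 of 0.

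Among the BMP receptors and signal transducers, 9 of 14 genes were tested and 0 were called, with a median ER difference of -0.02. SMAD4, the shared partner of the receptor-activated SMADs, had late means of 0.21 in HCC1954 and -0.10 in MDA-MB-231, and of -0.35, -0.22 and -0.59 in MDA-MB-361, T-47D and ZR-75-30. Of the ER-positive arrays 11 of 12 were below 0. The ER difference was -0.44 ± 0.15 (SE; limma, unadjusted p = 0.0162, adjusted p = 0.778). BMPR1A, a type I receptor of BMPs, was read by 3 tested probes that gave ER differences of -0.23, -0.44 and -0.31. On all 3 probes, the ER-positive lines had negative late means and did not overlap with the ER-negative lines, which lay between -0.01 and 0.18. The groups did not overlap on 20.9% of all probes tested, and probes of the same gene on the same arrays are not independent. The unadjusted p of the 3 BMPR1A probes was 0.0847, 0.00607 and 0.0283 (limma, none called). Of 15 secreted BMP antagonists only 4 could be tested, all with a positive ER difference and a median of 0.16. Among them CHRD, which encodes chordin, had 0.26 and NBL1, a DAN family antagonist, 0.25, each with overlap between the groups.

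Of 21 ER target genes 11 were tested and 0 were called, with a median ER difference of 0.06 and 8 differences above 0. CCND1, which encodes cyclin D1 and drives entry into the cell cycle, had late means of 0.21 in MDA-MB-361, 0.13 in T-47D, 0.06 in ZR-75-30, -0.05 in MDA-MB-231 and -0.36 in HCC1954. Its 3 tested probes gave ER differences of 0.34, 0.30 and 0.37. The groups did not overlap on any of them, nor did they on 20.9% of all probes tested. The first of these CCND1 probes had an SE of 0.13 (limma, unadjusted p = 0.0281, adjusted p = 0.790). Its difference was 0.19 without HCC1954 and 0.14 with normexp and median scaling. AREG, which encodes the EGF receptor ligand amphiregulin, had a difference of 0.34 ± 0.16 (SE), from -0.32 and -0.24 in the ER-negative lines to 0.36, 0.01 and -0.20. Of 16 luminal genes 10 were tested, with a median ER difference of 0.02. TFF3, a secreted trefoil peptide gene, had -0.30 and SPDEF, a luminal ETS factor, 0.23. Of 21 basal and mesenchymal genes 6 were tested, with a median of -0.02. Among them ANXA1, which encodes annexin A1, had late means of -0.17 and -0.14 in the ER-negative lines and 0.30, 0.17 and 0.21 in the ER-positive lines. Its ER difference of 0.39 ± 0.12 (SE; limma, unadjusted p = 0.00848, adjusted p = 0.778) turned to -0.20 with normexp and median scaling.

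In the remaining lists, 0 genes were called as well. Of 26 proliferation genes 25 were tested, with a median ER difference of -0.03. CCNE2, which encodes cyclin E2, had -0.36 ± 0.15 (SE; limma, unadjusted p = 0.0333). The medians were 0.02 for 6 TGF-beta responsive genes, 0.01 for 9 growth control genes, 0.09 for 11 immediate early genes, 0.03 for 8 interferon-stimulated genes, 0.00 for 12 sterol and fatty acid synthesis genes, 0.06 for 10 stress response genes and 0.09 for 11 hypoxia and glycolysis genes. These medians stand against an SD of 0.18 for single probes and a share of 6.00% of probes at an unadjusted p under 0.05. Outside DUSP2 and CCND1, named above, no gene of these 7 lists reached that level on its brightest vehicle probe. Another tested probe of SKI, of the TGF-beta responsive list, did with 0.38 (limma, unadjusted p = 0.0166). Of 11 markers of immune, stromal and endothelial cells 0 could be tested, and 3 had no late vehicle spot well above background.

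The probes with the smallest p-values are given as a description, since none passed. The largest leading difference was that of SSR3, which encodes a subunit of the translocon-associated complex of the endoplasmic reticulum (hg18, chromosome 3, 157741762 to 157741821). Its log2 ratios were -1.38, -1.40, -0.15 and -0.71 in HCC1954 and -0.25, 0.27, -0.68 and -0.46 in MDA-MB-231. The ER-positive lines had 0.56, 0.51, 0.13 and 0.19 (MDA-MB-361), 0.05, 0.24, 1.23 and 0.81 (T-47D), and 0.71, -0.41, 0.53 and 1.14 (ZR-75-30). Of the ER-negative arrays 1 of 8 was above 0, and of the ER-positive arrays 11 of 12 were. The ER difference was 1.07 ± 0.18 (SE; limma, unadjusted p = 1.55e-04, adjusted p = 0.624). Another tested SSR3 probe gave a difference of 0.12. CRCP, a subunit of RNA polymerase III, had late means of -0.45 and -0.24 in the ER-negative lines and 0.31, 0.64 and 0.53 in the ER-positive lines, with a difference of 0.84 ± 0.14 (SE), and its second tested probe had 0.43.

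The other 8 leading probes with higher ratios in ER-positive lines had differences between 0.52 and 0.66. They read SDC1 (syndecan 1, a cell surface proteoglycan), JAK1 (a cytokine receptor kinase), EZR (ezrin, a membrane to actin linker), NUP43 (a nuclear pore subunit), DDX6 (an RNA helicase of mRNA decay), ZNF644, ADCK2 and GUCD1. In the other direction stood 2 HNRNPA3 probes with -0.77 and -0.85, which overlap by position on chromosome 2. They read a nuclear RNA-binding protein gene that has processed pseudogenes, so their source is uncertain. BMI1, a Polycomb group gene, had -0.54 ± 0.12 (SE), and all 12 ER-positive arrays were below 0. IMPA1, PITX3, PLCE1, SOAT1, BTBD3, ATAD2 and MORF4L2 followed with differences from -0.54 to -0.43.

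Different probes of the same gene often gave other values. Of the 19 leading genes, 16 had another tested probe, 22 such probes in all. Of these 16 had the same sign, but only 2, for CRCP and for EZR (0.29), also had an unadjusted p under 0.05. The other probe was at 0.04 for SDC1, -0.12 for JAK1 and 0.27 for SOAT1, and the 5 other HNRNPA3 probes lay between -0.12 and 0.20. BMPR1A and CCND1 each had 3 tested probes of the same sign, 2 of them at an unadjusted p under 0.05.

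**Figure D4:**
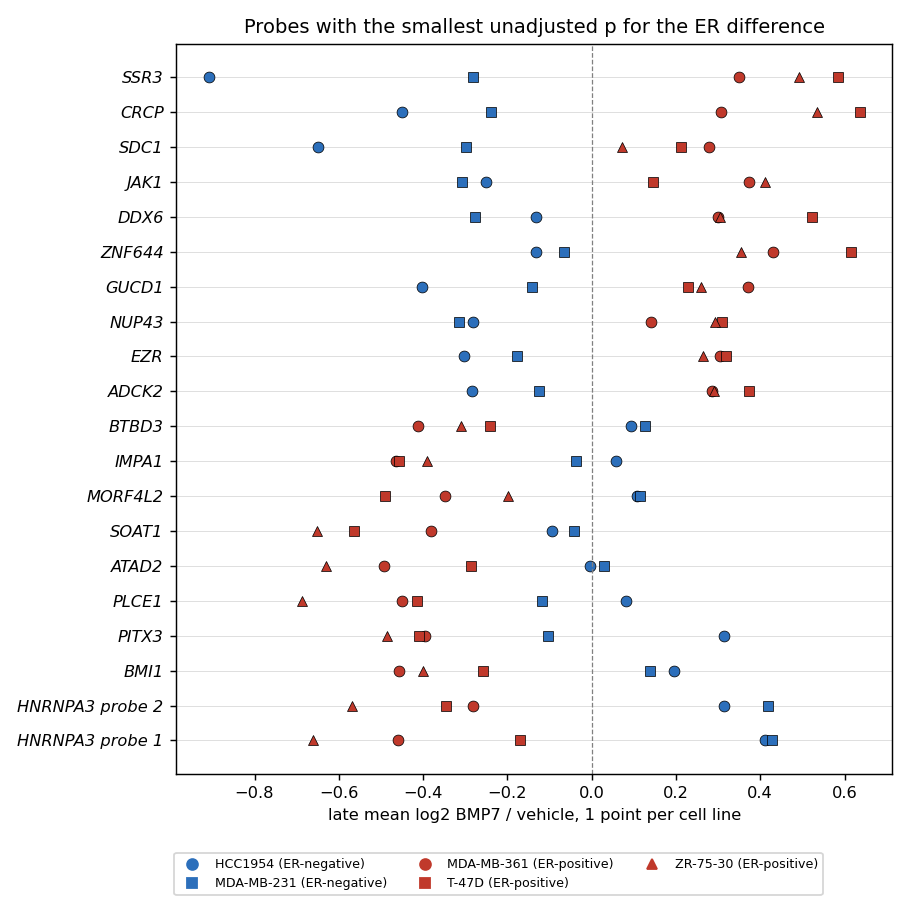
Late mean log2 BMP7/vehicle (x axis) of the 20 named probes with the smallest unadjusted p for the ER difference and no overlap between the groups, with 1 point per cell line. The ER-positive lines lie on the opposite side of all ER-negative lines by this choice, and the lowest late mean is that of SSR3 in HCC1954 at -0.91.

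T-47D differed from MDA-MB-361 and ZR-75-30 in the probes called without it, though the choice of those probes favors such a gap. The serum content of the medium also set T-47D apart from both of these lines, and the part of serum was not tested. When T-47D was left out, 432 probes were higher (2.46%) and 172 lower (0.980%) of 17553 tested in MDA-MB-361 and ZR-75-30 than in the ER-negative lines (limma, adjusted p under 0.05). This fit kept the ZR-75-30 6 h array and was not repeated without it. With all 5 lines, ZR-75-30 had 105 upward 2-fold probes with that array and 37 without it. For 397 of the 432 higher probes that were also measured in T-47D, the median late mean was 0.43 in MDA-MB-361 and 0.83 in ZR-75-30, against -0.42 in HCC1954 and 0.04 in MDA-MB-231. In T-47D, which took no part in that choice, the median was -0.23. T-47D was nearer to the ER-positive than to the ER-negative mean for 54 of the 397 probes (13.6%). The same held for 40.7% of all probes tested. The 397 were chosen for a wide gap between the other lines, which all probes lack. A line outside that choice tends to lie nearer 0, so the shares of all probes are no fitting baseline here or below. For 122 of the 172 lower probes, the medians were -0.41 in MDA-MB-361 and -0.60 in ZR-75-30, 0.12 in HCC1954, -0.01 in MDA-MB-231 and -0.10 in T-47D. T-47D was nearer to the ER-positive mean for 19 of them (15.6%). T-47D lay below both ER-negative lines for 76 of the 122 (62.3%), against 34.7% of all probes tested. Of the 397 it lay above both for 83 (20.9%), against 37.2% of all. NEUROG3, a proneural helix-loop-helix factor gene, led the higher set with 1.12 in MDA-MB-361, 1.31 in ZR-75-30, 0.33 in T-47D, 0.05 in MDA-MB-231 and -0.65 in HCC1954. In LCE5A and TNRC18 of the same set, ZR-75-30 had 1.33 and 1.32 and MDA-MB-361 0.53 and 0.46, while T-47D had -0.02 and -0.16. In GNA13, which encodes a G protein subunit, and PAPSS2, a sulfate donor synthase gene, T-47D had -0.18 and -0.32, between ZR-75-30 with -0.88 and -0.89 and the ER-negative lines.

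Within the ER-positive lines, the late mean differed from 0 for 1 probe, upward (0.00616% of 16225), while 3261 had an unadjusted p under 0.05 (20.1%). The probe read GIPR, the receptor of the incretin hormone GIP, with late means of 1.35 in ZR-75-30, 1.25 in T-47D and 1.01 in MDA-MB-361 (limma, mean 1.20 ± 0.09 (SE), adjusted p = 0.00178). GIPR was also high in the ER-negative lines, with 1.04 and 0.90 and an ER difference of 0.24 (limma, adjusted p = 0.912). At 30 min it was already between 0.70 and 1.85 in all 5 lines. Without dye swaps, a response that fast and a constant dye effect of the probe cannot be told apart. Without ZR-75-30 the mean was 1.13 and the call was lost (limma, adjusted p = 0.0717).

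Without the ZR-75-30 6 h array, 188 probes were upregulated (1.16%) and 128 downregulated (0.789%) in the ER-positive lines. The upregulated ones included ID1, with a mean of 0.83 (limma, adjusted p = 0.0475), and GATA2, with 0.69 (limma, adjusted p = 0.0447). HGS, an endosomal sorting gene, and NEUROG3 were upregulated as well. KLF5, a zinc finger factor gene of epithelial cells, also passed (limma, adjusted p = 0.0447). With normexp background correction and loess on the same arrays, 2 upregulated and 0 downregulated probes were left, and ID1 with a mean of 0.88 and GATA2 with 0.56 no longer passed (limma, adjusted p = 0.0510 for each). In the ER-negative lines 0 probes passed with all arrays, and 699 had an unadjusted p under 0.05 (4.31%). The leading ones were GIPR with a mean of 0.97 ± 0.11 (SE; limma, adjusted p = 0.0824), ID1 with 1.47 ± 0.19 (SE; limma, adjusted p = 0.130) and ID3 with 1.29 ± 0.18 (SE; limma, adjusted p = 0.130). With 3 lines against 2, a call in one group and not in the other does not show that the groups differ. Upregulated and downregulated mean here a mean log2 ratio above or below 0. Without dye swaps, a response and a constant dye effect of a probe cannot be told apart in any of these tests against 0. HGS was above 0 on 12 of 12 ER-positive and 8 of 8 ER-negative late arrays, and NEUROG3 on 10 and 3.

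A constant dye effect cancels in the change from the 30 min array to the late mean of the same line. At 30 min, however, every ER-negative line was scanned in the second batch. Among the ER-positive lines this held for ZR-75-30 only, while T-47D and MDA-MB-361 were in the first batch. A difference between scan batches need not cancel in this change, and its part was not tested. The ER difference of this change was called for 0 of 16181 probes (limma, lowest adjusted p = 1.00), with 100 at an unadjusted p under 0.05 (0.618%). ID3 had -0.58 ± 0.23 (SE; limma, unadjusted p = 0.0365) and ID1 -0.52 ± 0.40, and DUSP2 had 0.70 ± 0.28 (SE; limma, unadjusted p = 0.0367), each in the direction of its late difference. GATA2 had 0.36 ± 0.25 and SSR3 0.73 ± 0.46 (SE). KLF5 had 0.65 ± 0.19 (SE; limma, unadjusted p = 0.0105), from 30 min values between 0.03 and 0.43 in all lines to late means of 0.48, 0.80 and 0.34 in MDA-MB-361, T-47D and ZR-75-30 and 0.21 and 0.02 in the ER-negative lines. The smallest p belonged to IRF9, which encodes a subunit of the interferon-stimulated transcription complex, with -0.67 ± 0.16 (SE; limma, unadjusted p = 0.00315). Its 30 min values were 0.55, 0.92 and 0.46 in the ER-positive lines and -0.17 and 0.11 in the ER-negative lines, and its late means had an ER difference of -0.00. IFIT1, an interferon-stimulated gene, had -1.04 ± 0.34 (SE), with 1.21 in T-47D and 1.45 in ZR-75-30 at 30 min. With the 1 h array as the start, the differences of IRF9 and IFIT1 turned to 0.68 and 1.08.

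The size of the late response was largest in ZR-75-30 and T-47D, and every ER-positive line lay above both ER-negative lines, MDA-MB-361 by 1 probe. A late mean of at least 2-fold in either direction was found for 109 probes in ZR-75-30 (0.672%), 14 in T-47D (0.0863%), 4 in MDA-MB-361 (0.0247%), and 3 in each of HCC1954 and MDA-MB-231 (0.0185%). Of these 105 of ZR-75-30 were upward and 12 of T-47D downward. The mean difference of 39.3 probes between the groups of lines had p = 0.50 (exact permutation test, two-sided, 5 lines, where the smallest p this design allows is 0.10). Without its 6 h array ZR-75-30 had 42 such probes, and the groups differed by 17.0 probes (p = 0.20, two-sided exact permutation test). At 1.5-fold the counts were 626, 246, 121, 93 and 26 in the order given above (p = 0.20, same exact test). With normexp background correction and median scaling, the difference turned to -165.5 with 386 probes in MDA-MB-231 (p = 0.30, same exact test). The SD of the late means over all probes was 0.27 in ZR-75-30 (0.24 without the 6 h array), 0.22 in T-47D, 0.20 in MDA-MB-361, 0.17 in HCC1954 and 0.15 in MDA-MB-231.

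**Figure D5:**
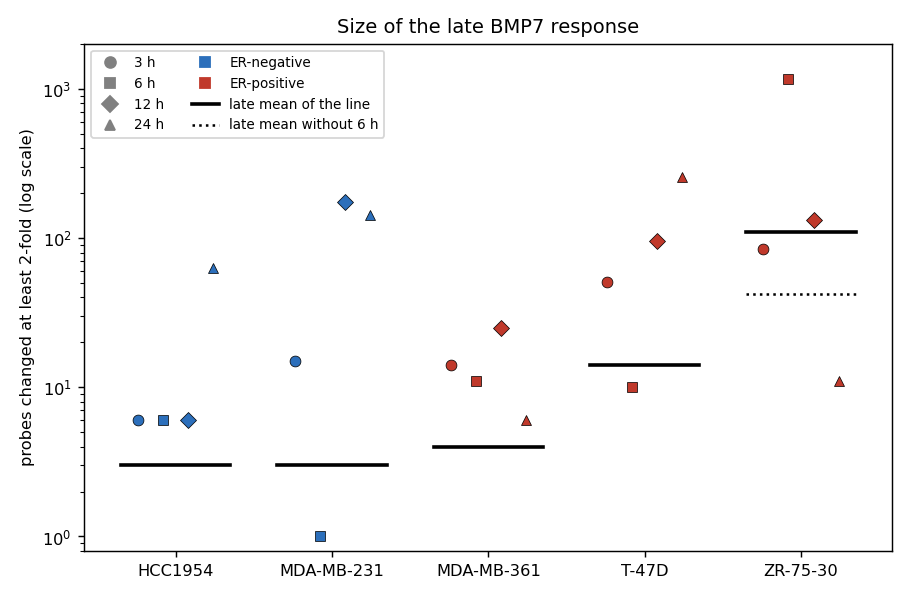
Number of probes changed at least 2-fold (y axis, log scale) on each late array, as symbols by time point, and in the late mean of each line, as horizontal lines, with a dotted line for ZR-75-30 without its 6 h array. ZR-75-30 at 6 h has 1163 such probes, the other late arrays 1 to 255, and the late means 3 to 109.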

How the data were processed

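Agilent two-colour whole human genome arrays compared BMP7-treated with vehicle-treated cells of 5 breast cancer lines at 6 time points. The deposited log10 ratios are, per the file headers, output of Feature Extraction with background and dye effects already corrected, and the intensity of both channels was deposited with flags for background. A series matrix of log2 ratios that the authors made served as an alternative. ER status is not in the labels and was taken as commonly known.

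Log2 ratios were computed without control spots and outlier-marked spots, as the mean over spots of a probe, with the median of every array set to 0. On the late arrays, 51.7% to 68.1% of probes passed the background flags of both channels, and the number of arrays limits the precision. Probes with both channels well above background on all late arrays were averaged per line and tested with limma 3.58.1 in R 4.3.3 over 5 line means, adjusted by Benjamini-Hochberg over all probes tested, at a threshold of 0.05. The other calculations used Python 3.11.15, numpy 2.4.6, pandas 2.3.3 and matplotlib 3.10.9. In a test on simulated data with 16225 probes, 45 of 50 differences of 1 and 50 of 50 of 2 were recovered, with 9 false calls. Those data held more large differences than the real ones, so the recovery is an upper estimate. Probe names were matched to RefSeq for 24321 probes by accession, 2482 by symbol and 984 by synonym, and 13213 stayed unnamed.

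The lines, the 15 gene lists and the tests were chosen with earlier results of these data known. Named were the BMP-SMAD target genes, each by its brightest vehicle probe (ID genes by every probe), 10 probes per direction of the ER difference and 5 per direction of the other fits (largest among those called, otherwise smallest p, without overlap between lines for the ER difference), and 2 members of every other list with the largest ER difference. Alternatives were normexp background correction (offset 50) with loess or median scaling, the matrix values, no median shift, other background filters, outlier spots kept, each time point, line or doubtful array left out, the first scan batch alone, another baseline, and fits on single arrays with line, time or slide as a block. The slide fit counts time points of a line on different slides as separate units. The setting without a median shift equals the main one, because the array medians were already 0.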

Additional observations from a re-analysis of the deposited data

Results flagged for a closer look

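Within a line, 6 of 60 sets of 4 late arrays held a value far from the other 3, where chance gives about 1 in 20. These were the number of probes changed at least 2-fold in HCC1954 at 24 h (63, against 6 on each of the other 3 arrays) and in ZR-75-30 at 6 h (1163), and the log2 ratios of SMAD7 in HCC1954 at 6 h (-0.0066), ID3 in ZR-75-30 at 6 h (0.58), MSX2 in ZR-75-30 at 6 h (-0.14) and GATA3 in ZR-75-30 at 6 h (-0.82). Of these 6 values 4 belong to the ZR-75-30 6 h array, which lies in the second scan batch.

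All ER-positive lines were on one side of 0 and all ER-negative lines on the other for 21 of 86 named probes that were tested and for 852 of all probes (5.25%). Many of the 21 were named for a small p without overlap, so their share says nothing about the genes, and apart from the limma values given above the difference was not tested. ER differences above 0 were those of SSR3 (1.07), CRCP (0.84), SDC1 (0.66), JAK1 (0.59), DDX6 (0.58), ZNF644 (0.57), GUCD1 (0.56), NUP43 (0.55), EZR (0.54), ADCK2 (0.52), RMDN1 (0.40), ANXA1 (0.39), CCND1 (0.34) and BMS1 (0.22). Those below 0 were of 2 HNRNPA3 probes (-0.77 and -0.85), BMI1 (-0.54), MORF4L2 (-0.46), BTBD3 (-0.43), BMPR1A (-0.23) and DHCR7 (-0.16).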

How the results depend on the processing

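The absence of called ER differences was the same under all alternatives but the following. With slide as a random block over single arrays, without a term for the line, there were 17 higher and 6 lower. Without T-47D there were 432 and 172. The other lines left out in turn gave 0 in both directions, so this count ranged from 0 to 432 higher and 0 to 172 lower. For the change from 30 min, leaving out each line gave 0 to 5 lower, the 5 without MDA-MB-231.

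Counts in the ER-positive lines moved most. Upregulated and downregulated probes numbered 188 and 128 without the ZR-75-30 6 h array, 294 and 159 in the first scan batch alone, 10 and 3 with 1 channel above background sufficing, 10 and 1 with outlier spots kept, 23 and 7 with robust limma and a trend, 808 and 877 with line as a random block over single arrays, 710 and 745 with time added, and 1665 and 1716 with slide as the block. Only the upregulated count moved with normexp and median scaling (47), the matrix values (8), and no filter on dim probes (0). Normexp and loess without the ZR-75-30 6 h array gave 2 and 0, against the 188 and 128 without that array alone. Leaving out each line gave 0 (without ZR-75-30) to 1197 up and 0 to 1376 down (both highest without T-47D).

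In the ER-negative lines, 362 probes were upregulated with normexp and median scaling. In that setting the median over all probes tested was itself shifted, to 0.14 in the ER-negative lines. There was 1 upregulated probe with 1 channel above background sufficing, without the ZR-75-30 6 h array, or in the first scan batch. The same count was found without the 12 h arrays or with robust limma. With line as a random block there were 20 up and 4 down, with time added 12 up, and with slide 86 up and 49 down. Leaving out each line gave 0 to 40 up and 0 to 35 down, the highest without T-47D.

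The sign turned for the size of the response (-165.5 with normexp and median scaling), and for the changes of IRF9 (0.0015 and 0.68) and IFIT1 (0.020 and 1.08) with 30 min and 1 h or with 1 h as the baseline. Of 123 values of named probes, 21 changed sign under some alternative, 3 of which had an unadjusted p under 0.05 (ANXA1 and both changes), and 0 of the 21 passed the test there. The other ER differences that turned had an unadjusted p of at least 0.0861. With normexp and loess, these were 0.018 for SMAD7, 0.090 for BAMBI and 0.016 for FOXC1. Without the 12 h arrays, these were 0.0093 for SMAD7, 0.058 for TCF15, 0.033 for SARDH and 0.064 for IRF9. With normexp and loess without the ZR-75-30 6 h array, these were 0.053 for SMAD7, 0.077 for BAMBI and 0.044 for IRF9. With normexp and median scaling, these were 0.019 for BAMBI, -0.045 for HES1, -0.18 for CDKN1A, -0.34 for DIRC1, -0.20 for ANXA1, -0.16 for IER3, -0.071 for DNAJB9 and -0.27 for ENO1. With the matrix values, these were 0.031 for BAMBI, 0.031 for TCF15 and 0.033 for IRF9. Without the 3 h arrays, these were 0.0068 for BAMBI, 0.10 for IRF9 and 0.056 for APH1A. Without the 24 h arrays, these were 0.11 for BAMBI, -0.014 for GATA3, -0.014 for CDKN1A and 0.10 for TCF15. With slide as the block, these were 0.0084 for BAMBI, -0.0021 for CDKN1A and 0.034 for TCF15. In the first scan batch, these were -0.0073 for DIRC1 and 0.089 for IRF9. Without the 6 h arrays, these were -0.056 for DIRC1 and -0.064 for IFIT1. With the 12 and 24 h arrays alone, these were -0.080 for DIRC1, 0.065 for IRF9, 0.080 for APH1A and 0.0051 for PFKFB3. Without the ZR-75-30 6 h array, this was 0.053 for IRF9. Normexp and median scaling also shifted the median ER difference of all probes to -0.12. Leaving out each line gave ranges through 0 of -0.023 to 0.025 for BAMBI, -0.077 to 0.25 for MSX2, -0.050 to 0.15 for GATA3, -0.093 to 0.087 for CDKN1A, -0.039 to 0.050 for DIRC1, -0.073 to 0.071 for TCF15, -0.12 to 0.012 for SARDH, -0.078 to 0.066 for IRF9, -0.24 to 0.031 for APH1A, -0.076 to 0.60 for CHRD and -0.59 to 0.20 for PFKFB3. GIPR lost its call in the ER-positive lines without a filter on dim probes, at an unchanged mean of 1.20 (limma, adjusted p = 0.196), and without ZR-75-30, at 1.13. The causes were not tested. Of all recomputed values of named probes, 2800 kept their direction and call, 190 kept their direction and newly passed, 2 lost their call and 63 turned. The 2800 include the values without a median shift, which could not differ from the main ones. No paired analysis was possible because each line and time point has 1 array and the labels number no replicates.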
